A study of Mus musculus with 22 samples.

Results

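The collagen chain genes were taken as all protein-coding genes of the mouse annotation named by Col, a type number, the letter a and a chain number. The rule found 44 of the 49671 genes in the deposited tables. Of these, 29 had a mean of at least 10 normalized counts, which are read counts per gene divided by a size factor for each library, in the right ventricle (RV) table, the left ventricle (LV) table or both. They comprised 9 of 11 fibrillar chains, 6 of 6 chains of basement membrane type IV, 4 of 6 beaded-filament chains of type VI, and 4 of 9 FACITs (fibril-associated collagens with interrupted triple helices). The rest were 2 of 3 short-chain network genes, 2 of 2 multiplexins, 1 of 4 transmembrane collagens and Col26a1. The 15 genes under the minimum were Col2a1, Col11a2, Col6a4, Col6a5, Col7a1, Col10a1, Col9a1, Col9a3, Col19a1, Col20a1, Col22a1, Col13a1, Col17a1, Col25a1 and Col28a1. Just under it was Col25a1, with means of 9.22 in the RV and 7.68 in the LV. Just above it were Col9a2, with 11.0 and 4.89, and Col8a2, with 22.8 and 13.1. Col9a2 passed the minimum through the banded RV alone, so its difference there was in part fixed by the filter.

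The samples were hearts of neonatal mice of CD1, an outbred strain, for which the labels name no transgene or deletion. On postnatal day 1 the mice had either a band tied around the pulmonary artery (neonatal pulmonary artery banding, nPAB), so that the RV ejects against a narrowed vessel, or a sham operation, and tissue was taken 7 days later. Bulk RNA-seq was made from the RV and the LV of each mouse, giving 6 RV nPAB, 5 RV Sham, 6 LV nPAB and 5 LV Sham libraries. The band loads the RV directly and not the LV. Litters are not given in the labels, so whether mice of a group were littermates is not known here. Because each library holds all cells of a ventricle, fewer cells of a type and less RNA per cell cannot be told apart.

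The libraries held 7.11 to 11.3 M reads. Markers of cardiomyocytes were abundant in every group, with summed levels of 306726 to 383944 normalized counts in RV Sham and 292138 to 398842 in RV nPAB. Nppa, the natriuretic peptide gene known to respond to load, rose in the RV of banded mice, by 6.09 (adjusted p = 6.59e-05) on the log2 scale. Xist and the Y-linked gene Ddx3y gave the same sex for the RV and LV libraries of 9 of 11 mice. In nPAB mouse 6 the RV library was female and the LV library male, and in nPAB mouse 7 it was the reverse, so by these genes neither labelled pair came from 1 animal. Results for named genes that join the ventricles of a mouse are therefore given with and without these mice.

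Collagens are proteins of chains wound into a triple helix. Fibrillar chains such as those of types I, III and V build the tensile fibres between heart muscle cells and are made mainly by cardiac fibroblasts. Type IV chains form the sheet-like network of basement membranes around muscle cells and capillaries, type VI chains form beaded filaments that link cells to fibres, and FACITs sit on fibril surfaces. In the heart, types I and III are best known for their rise in fibrosis.

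Sequences are shown for the genes that carry the main differences: a gene pair that rose together, a fibrillar gene that fell and a pair of genes with large rises. All were taken from RefSeq on the GRCm38.p6 build (mm10), which had a window for 23 of the 29 measured genes. Col4a1 (chr8:11198423-11312826, minus strand) and Col4a2 (chr8:11312805-11449287, plus strand) are transcribed away from each other and their annotated ends overlap by 22 bases. That overlap, in capitals, lies in chr8:11312801-11312830 and is printed on the plus strand:
Col4a2/Col4a1: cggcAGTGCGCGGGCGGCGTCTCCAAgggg
For the other genes the 250 bases before the annotated start are printed on the strand of the gene, 5′ to 3′. Capitals mark matches on either strand to the TATA box, searched as TATAAA, to a box with the letters CCAAT, and to the GC box, searched as GGGCGG. Col3a1 (chr1:45311288-45311537, plus strand) held 1 TATAAA and no match to the CCAAT or GC box:
Col3a1: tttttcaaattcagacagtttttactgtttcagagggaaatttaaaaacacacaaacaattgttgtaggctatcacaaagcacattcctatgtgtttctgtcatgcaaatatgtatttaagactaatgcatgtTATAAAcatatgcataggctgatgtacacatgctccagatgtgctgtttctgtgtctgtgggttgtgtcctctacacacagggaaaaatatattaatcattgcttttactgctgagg
Col8a1 (chr16:57754738-57754987, minus strand) held 4 GC boxes:
Col8a1: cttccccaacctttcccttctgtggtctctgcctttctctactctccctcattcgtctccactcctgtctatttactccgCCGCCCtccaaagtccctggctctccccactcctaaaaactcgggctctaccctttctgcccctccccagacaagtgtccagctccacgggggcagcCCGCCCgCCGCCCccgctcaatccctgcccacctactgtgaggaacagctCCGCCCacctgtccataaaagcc
Col11a1 (chr3:114030290-114030539, plus strand) held 1 CCAAT box and 2 GC boxes:
Col11a1: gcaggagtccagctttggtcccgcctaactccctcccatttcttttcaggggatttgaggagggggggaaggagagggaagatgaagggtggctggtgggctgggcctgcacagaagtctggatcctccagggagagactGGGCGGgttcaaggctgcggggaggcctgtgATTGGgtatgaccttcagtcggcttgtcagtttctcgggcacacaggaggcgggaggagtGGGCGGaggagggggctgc
Of the 23 genes, 16 held a GC box, against 32.7% of the 32851 windows of all genes, 8 held a CCAAT box, against 33.9%, and 1 (Col3a1) held TATAAA, against 12.4%. CATTCC, the MCAT site of TEAD factors, was found in 3 (Col3a1, Col18a1 and Col6a2), against 12.6% of all windows. TGANTCA, the AP-1 site, was found in 1 (6.75%), and GTCTAGAC, the SMAD box, in 0 (0.167%). A match describes the letters in the window and not a site in use.

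Collagen RNA in the sham RV was dominated by a few chains. Levels between genes are compared here as normalized counts per kb of transcript, over the 29 measured genes. Col3a1, the type III chain, stood at 5661 ± 756 per kb (SD, n = 5), 40.3% of the summed level. Next were the type I chains Col1a1 at 2251 ± 255 and Col1a2 at 1401 ± 139, then Col4a1 at 1213 ± 100.2 and Col4a2 at 983 ± 44.2. Col5a1 at 324 ± 34.1 and Col14a1 at 323 ± 41.8 held neighbouring places and did not differ beyond their spread. In RV nPAB Col3a1 was still first, at 3830.2 ± 533 (n = 6), 28.5% of the sum. Col4a1 at 1859 ± 149 and Col4a2 at 1458 ± 161 stood above Col1a2 at 1384 ± 244, although Col4a2 and Col1a2 overlapped within their spread. Col8a1 moved from 30.9 ± 16.9 to 180.1 ± 79.7 per kb, from place 16 to place 13.

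Sham hearts already differed between the ventricles. The tables of the 2 ventricles were normalized separately, so these levels are given as RPM (recovered reads scaled to a common library total), and the difference was not tested. Of the 29 genes, 13 were higher in the RV than in the LV of all 5 Sham mice, against 7.45% of all 13364 genes, and 0 were higher in no mouse, against 4.05% of all genes. Col3a1 stood at 3654 ± 531 against 2657 ± 291 RPM (SD, n = 5), Col1a1 at 1548 ± 192 against 1154 ± 83.0 and Col1a2 at 869 ± 96.6 against 642 ± 40.8. Col6a3, a type VI chain, stood at 149 ± 22.9 against 109 ± 9.31. Of the 6 basement membrane chains only Col4a2 was higher in the RV of all 5 mice, at 735 ± 40.5 against 697 ± 53.7. Col4a1 stood at 930.2 ± 84.4 against 961 ± 128, Col4a5 at 108 ± 12.5 against 105 ± 13.1 and the low chain Col4a4 at 11.3 ± 2.95 against 9.22 ± 3.34. On the log2 scale the RV lay above the LV by 0.33 to 0.53 for Col3a1 over the 5 mice, against -0.16 to 0.07 for Col4a1 and 0.01 to 0.25 for Col4a2.

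The first comparison was between the banded and the sham RV. Col4a1, Col4a2 and Col4a5 of the basement membrane, Col8a1 of the short-chain network and Col11a1, Col12a1 and Col18a1 rose, while Col3a1, the most abundant fibrillar gene, fell. Of the 29 genes, 12 rose and 3 fell, and the other 14 did not reach the threshold. The background was 22.0% of all 13660 genes called by limma at an adjusted p under 0.05 (11.1% rose and 10.8% fell). Without Col9a2, 11 of 28 rose. The groups' libraries did not overlap for 8 of the 29 genes, Col9a2 among them, against 12.9% of all genes tested. The median log2 fold change was 0.18 over the collagens, Col9a2 included, and 5.16e-05 over all genes tested. Summed over the 29 genes, collagen counts stood at 81946 ± 8322 in RV Sham and 79606 ± 8720.4 in RV nPAB, a difference smaller than the spread within either group.

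**Figure D1:**
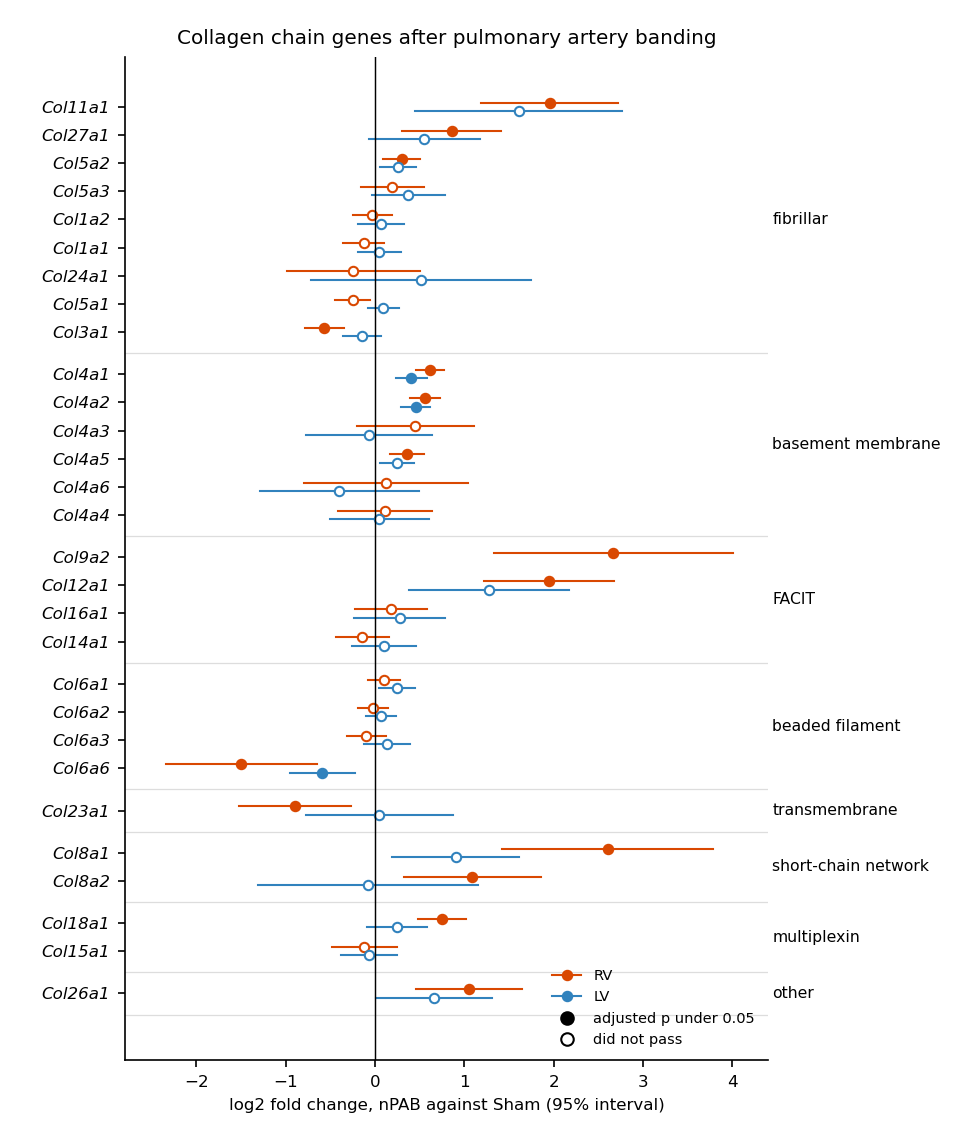
Log2 fold change of nPAB against Sham for the measured collagen genes, by class, with 95% intervals; orange is the RV, blue the LV, and filled points passed the test. In the RV, Col8a1, Col11a1, Col12a1 and Col9a2 lie farthest right and Col6a6 farthest left, while Col3a1 lies left of 0 among abundant fibrillar chains that lie near 0. Col9a2 passed the minimum mean through the banded RV alone, so its place was in part fixed by the filter.

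Among the 9 fibrillar genes 3 rose and 1 fell, against 11.1% and 10.8% of all genes. Col3a1 (type III) stood at 36157, 31936, 34942, 26772 and 27672 normalized counts in RV Sham and at 17108 at the lowest, 21109 at the median and 25342 at the highest in RV nPAB. All 6 banded libraries lay below all 5 sham libraries, and Col3a1 fell, with a log2 fold change of -0.56 ± 0.10 (SE, adjusted p = 0.000726). Col1a1, the major type I chain, stood at 15219.9, 12382, 14735, 12476 and 11923 in RV Sham and at 10128 at the lowest, 11574 at the median and 16437 at the highest in RV nPAB, with a log2 fold change of -0.13 (adjusted p = 0.457) and a 95% interval of -0.36 to 0.11. Col1a2, its partner chain, stood at 8284, 7388, 8227, 6775 and 6782 in RV Sham and at 6034 at the lowest, 6944 at the median and 9499.6 at the highest in RV nPAB, with a log2 fold change of -0.03 (adjusted p = 0.878) and an interval of -0.25 to 0.19. For both type I chains the groups overlapped and the interval holds changes of either sign. Without nPAB mice 6 and 7 together Col1a1 passed, at 0.0235, against adjusted p values of 0.0235 to 0.701 over its alternatives.

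Type V chains mix with type I in fibrils and limit their diameter. Col5a1 stood at 2915, 2741, 2959, 2763 and 2239.5 in RV Sham and at 1949.9 at the lowest, 2229 at the median and 2720.2 at the highest in RV nPAB, with overlap and a log2 fold change of -0.25 (adjusted p = 0.067), which did not pass. It passed without RV nPAB 6, without RV nPAB 7, without RV Sham 13 and without nPAB mice 6 and 7 together. Its adjusted p ran from 0.00821 to 0.153 over the alternatives. Col5a2 stood at 1509, 1519, 1715, 1248 and 1265 in RV Sham and at 1615 at the lowest, 1701 at the median and 2229.7 at the highest in RV nPAB, with overlap, and rose by 0.30 (adjusted p = 0.0376). It passed in 11 of 22 alternatives. Its call was lost without RV nPAB 6, 8 or 11 and without RV Sham 9, 10, 12 or 13, without nPAB mice 6 and 7 together, by edgeR (0.0577), with no filter and with no trend or robust option, at adjusted p values up to 0.112.

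Col11a1, a type XI chain that nucleates fibrils in cartilage and other tissues, stood at 87.1, 78.9, 157, 75.9 and 66.9 in RV Sham and at 197 at the lowest, 379 at the median and 642 at the highest in RV nPAB. The groups did not overlap and the log2 fold change was 1.96 ± 0.35 (SE, adjusted p = 0.00202). Col27a1, a fibrillar chain known from cartilage, stood at 32.9, 60.3, 39.7, 57.4 and 52.8 in RV Sham and at 54.9 at the lowest, 89.1 at the median and 140.4 at the highest in RV nPAB. The groups overlapped, and it rose by 0.86 (adjusted p = 0.0253) and passed in 17 of 22 alternatives, with a highest adjusted p of 0.0697; the call was lost without RV nPAB 5, 6 or 8, and without RV Sham 9 or 11. Col5a3 and Col24a1 were at 0.19 (adjusted p = 0.456) and -0.24 (adjusted p = 0.685).

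**Figure D2:**
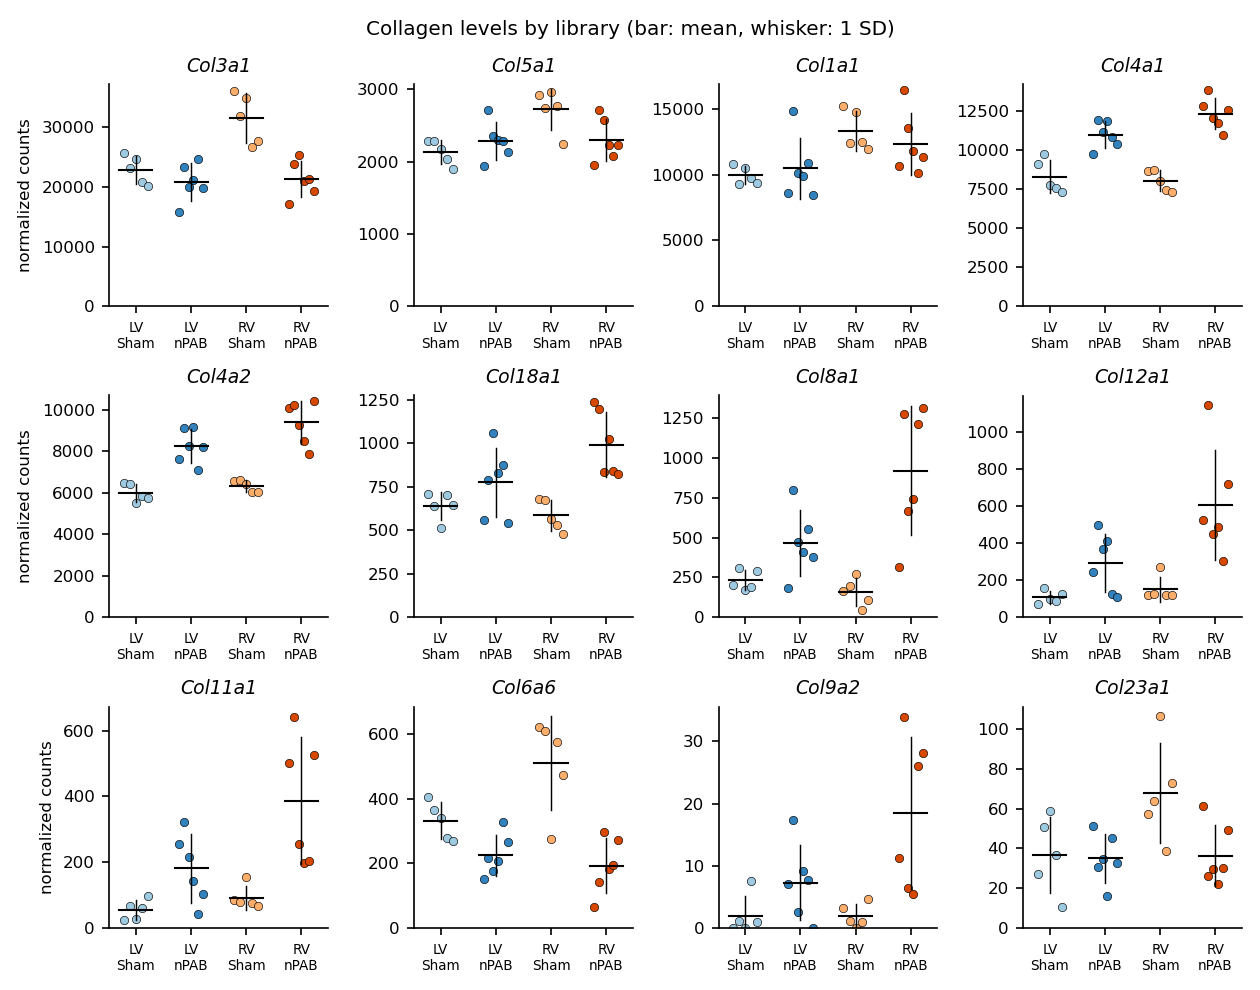
Normalized counts of 12 collagen genes in each library of the 4 groups, with a bar at the mean and a whisker of 1 SD, drawn only above 0; each axis starts at 0. Col4a1 and Col4a2 in RV nPAB lie above every RV Sham library, Col3a1 lies below every one, and Col8a1, Col12a1 and Col11a1 spread widely within RV nPAB.

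Of the basement membrane genes 3 of 6 rose and 0 fell in the RV, against 11.1% and 10.8% of all genes. Col4a1 and Col4a2, which form the common type IV trimer, are the divergent pair whose shared start is printed above. Col4a1 stood at 8667, 8716, 8000.1, 7450.0 and 7294 normalized counts in RV Sham and at 10946 at the lowest, 12274 at the median and 13831 at the highest in RV nPAB, and rose by 0.62 ± 0.08 (SE, adjusted p = 1.97e-05). Col4a2 stood at 6571, 6643, 6409, 6034 and 6055 in RV Sham and at 7879.8 at the lowest, 9688 at the median and 10447 at the highest in RV nPAB, and rose by 0.56 ± 0.08 (SE, adjusted p = 7.14e-05). For both genes every banded library lay above every sham library, and both passed in all 22 alternatives. Because the labels do not say whether reads were counted by strand, reads in their short overlap are uncertain. Col4a5, an X-linked type IV chain, stood at 1048, 1013, 795, 979.5 and 847 in RV Sham and at 1009 at the lowest, 1210.1 at the median and 1289 at the highest in RV nPAB, with overlap, and rose by 0.36 ± 0.09 (SE, adjusted p = 0.00781). The low chains Col4a3, Col4a4 and Col4a6 were at 0.45 (adjusted p = 0.333), 0.11 (adjusted p = 0.792) and 0.12 (adjusted p = 0.877).

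Both measured short-chain network genes rose, against 11.1% of all genes. Col8a1, a type VIII chain of vascular and endothelial matrix, stood at 165, 194, 275, 45.7 and 109 normalized counts in RV Sham and at 316 at the lowest, 976 at the median and 1315 at the highest in RV nPAB. Groups did not overlap, and the rise was 2.61 ± 0.53 (SE, adjusted p = 0.00667) on the log2 scale. Col8a2, the other type VIII chain, was low, at 18.1, 28.5, 12.7, 7.78 and 7.04 in RV Sham and at 19.5 at the lowest, 29.3 at the median and 37.0 at the highest in RV nPAB, with overlap. It rose by 1.09 (adjusted p = 0.0396) and passed in 10 of 21 alternatives, with a highest adjusted p of 0.101. It passed without RV nPAB 7, RV Sham 9 or RV Sham 10 and was lost without any other library, without nPAB mice 6 and 7 together, by edgeR and with no filter.

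Among the FACITs 2 of 4 rose, against 11.1% of all genes. Of these, Col9a2 passed the minimum through the banded RV alone. Col12a1, a FACIT known from tendon and other tissues under tension, stood at 120.0, 126, 269.9, 118 and 121 in RV Sham and at 301 at the lowest, 507 at the median and 1142 at the highest in RV nPAB, without overlap, and rose by 1.95 ± 0.33 (SE, adjusted p = 0.00169). Col9a2, known from cartilage, stood at 3.19, 1.10, 0, 0.973 and 4.70 in RV Sham and at 5.55 at the lowest, 18.6 at the median and 33.8 at the highest in RV nPAB, and its log2 fold change was 2.67 (adjusted p = 0.00548). Those values rest on 0 to 4 reads per sham library and 6 to 39 per banded one. Col14a1 and Col16a1 were at -0.14 (adjusted p = 0.529) and 0.18 (adjusted p = 0.555).

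Of the multiplexins, basement-membrane collagens that carry side chains, Col18a1 stood at 683, 676, 564, 528 and 481 normalized counts in RV Sham and at 826 at the lowest, 931 at the median and 1238 at the highest in RV nPAB. The groups did not overlap and Col18a1, the source of endostatin, rose by 0.75 ± 0.13 (SE, adjusted p = 0.000431). Col15a1 was at -0.12 (adjusted p = 0.677).

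Among the type VI chains 0 of 4 rose and 1 fell, against 11.1% and 10.8% of all genes. Col6a6 stood at 620.2, 609, 275, 574 and 472 in RV Sham and at 65.2 at the lowest, 188 at the median and 297 at the highest in RV nPAB; the ranges overlapped through RV Sham 11, and it fell, with a log2 fold change of -1.49 ± 0.38 (SE, adjusted p = 0.0176). Col6a1, Col6a2 and Col6a3, the chains of the main type VI trimer, were at 0.10 (adjusted p = 0.45), -0.02 (adjusted p = 0.864) and -0.10 (adjusted p = 0.556). Col23a1, a transmembrane collagen, fell by 0.90 on the log2 scale (adjusted p = 0.0382). Its levels were 57.3, 63.6, 106, 38.9 and 72.8 in RV Sham and 22.2 at the lowest, 29.9 at the median and 61.1 at the highest in RV nPAB, with overlap. It passed in 11 of 22 alternatives, at adjusted p values up to 0.121. The call was lost without RV nPAB 6, 7, 8 or 10, without RV Sham 9, 10, 11 or 13, without nPAB mice 6 and 7 together, with no filter and with no trend or robust option. Col26a1, a collagen outside the main classes, stood at 53.1, 57.0, 31.8, 27.2 and 57.5 in RV Sham and at 47.9 at the lowest, 100.4 at the median and 132 at the highest in RV nPAB, with overlap, and rose by 1.05 ± 0.28 (SE, adjusted p = 0.0117).

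The make-up of the collagen RNA differed between the groups. As a share of the summed level per kb, fibrillar chains took 70.4% ± 1.49 in RV Sham (SD, n = 5) and 58.8% ± 2.56 in RV nPAB (n = 6), with ranges of 69.0% to 72.4% and 56.2% to 62.7%. Basement membrane chains took 16.9% ± 1.04 in RV Sham and 26.4% ± 2.77 in RV nPAB. In LV Sham and LV nPAB fibrillar chains took 63.9% to 67.9% and 57.9% to 62.5%, and basement membrane chains 21.0% ± 1.47 and 26.3% ± 2.45. In the RV neither class overlapped between groups; in the LV the fibrillar class did not, while basement membrane ran from 19.1% to 23.2% in Sham and 23.0% to 29.2% in nPAB. Type VI chains stayed between 5.64% and 7.13% in every group. These shares are descriptions without a test.

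**Figure D3:**
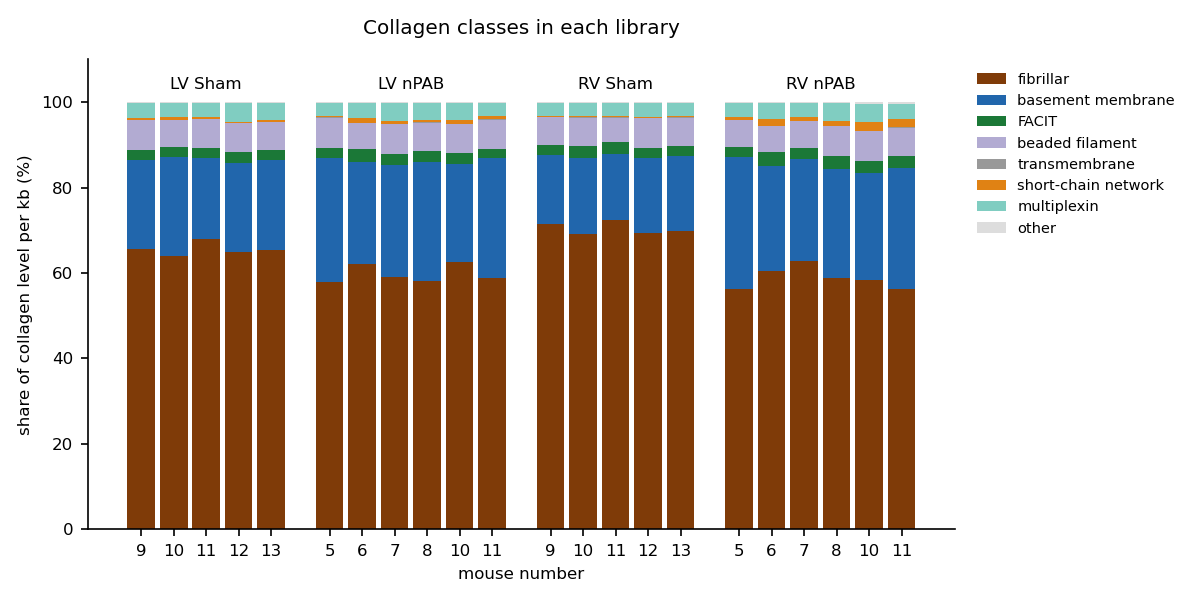
Share of each collagen class in the summed level per kb of the 29 genes, 1 bar per library, grouped by ventricle and operation, with mouse numbers below. In both ventricles the mean fibrillar share is lower and the mean basement membrane share higher in nPAB than in Sham mice, with the larger shift in the RV.

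Ratios between chains, which cancel library scaling, are given per library group and were not tested. Col1a1 over Col3a1, both per kb, was 0.399 ± 0.0263 in RV Sham and 0.543 ± 0.0689 in RV nPAB, without overlap. In the LV it ran from 0.376 to 0.439 and 0.401 to 0.598, with overlap. Col5a1 over Col5a2, partner chains of type V, was 1.49 ± 0.156 in RV Sham and 1.02 ± 0.118 in RV nPAB, again without overlap. In the LV it was 1.43 ± 0.0751 and 1.27 ± 0.0762. Of the other partner chains, Col1a1 over Col1a2 was 1.51 to 1.66 in RV Sham and 1.45 to 1.56 in RV nPAB. Col4a1 over Col4a2 was 1.17 to 1.29 and 1.17 to 1.35, and Col8a1 over Col8a2 4.98 to 18.3 and 8.76 to 36.7. All of these overlapped between groups, as did the ratios of Col6a1 to Col6a2, Col6a3 to Col6a1, Col4a5 to Col4a6 and Col4a3 to Col4a4. Col4a1 over Col3a1, a ratio chosen after its values were seen, was 0.216 ± 0.018 in RV Sham and 0.494 ± 0.082 in RV nPAB, and 0.305 ± 0.0308 and 0.448 ± 0.0509 in the LV, without overlap in either ventricle.

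**Figure D4:**
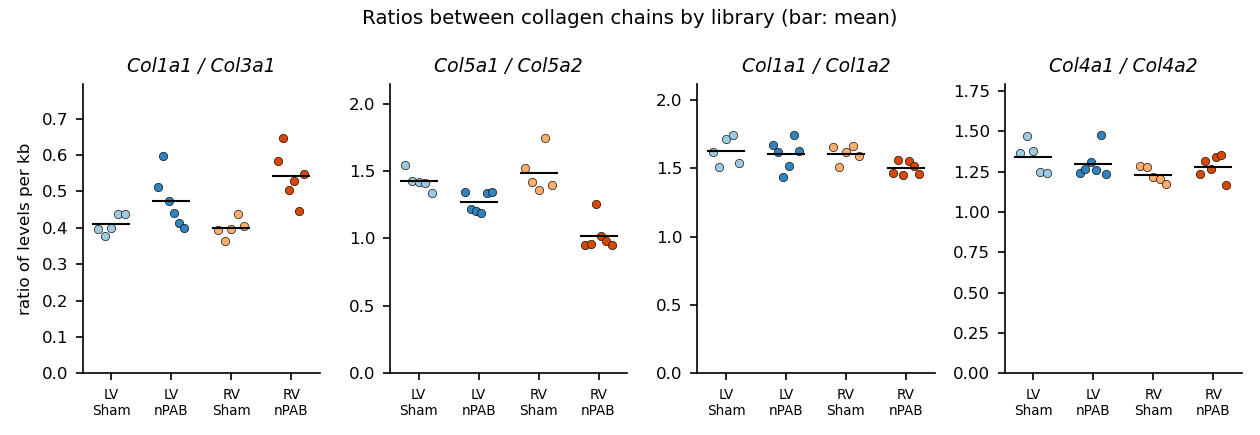
Ratios of levels per kb between pairs of collagen chains in each library, with a bar at the group mean and axes from 0. Col1a1 over Col3a1 is higher and Col5a1 over Col5a2 lower in every RV nPAB library than in any RV Sham library, while the type I and type IV partner ratios overlap between groups.

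In the LV, the ventricle that the band does not load directly, the type IV pair also rose. Of 28 measured genes 2 rose, 1 fell and 25 missed the threshold, against a background of 9.31% of all 13528 genes called (4.76% rose and 4.55% fell); Col9a2 was not tested there. Groups did not overlap for 2 genes, Col4a1 and Col4a2, against 6.53% of all genes. Col4a1 stood at 9106, 9702, 7758, 7531 and 7327 normalized counts in LV Sham and at 9718 at the lowest, 10947 at the median and 11879 at the highest in LV nPAB, and rose by 0.41 ± 0.08 (SE, adjusted p = 0.00385). Col4a2 stood at 6487, 6423, 5495, 5871 and 5758 and at 7119.8 at the lowest, 8239 at the median and 9194 at the highest, and rose by 0.46 ± 0.08 (SE, adjusted p = 0.000973). Both passed in all 22 alternatives. Col6a6 stood at 405, 364, 341, 278 and 270.2 in LV Sham and at 153 at the lowest, 212 at the median and 327 at the highest in LV nPAB, with overlap, and fell, with a log2 fold change of -0.59 ± 0.17 (SE, adjusted p = 0.039). That call was lost without LV nPAB 5, 6, 7 or 8, without LV Sham 9, 10 or 11, without nPAB mice 6 and 7 together, by edgeR (0.0551), with no filter and with no trend or robust option. Its adjusted p ran from 0.00883 to 0.141 over the alternatives.

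Col11a1, Col12a1 and Col8a1, with large rises in the RV, had positive log2 fold changes in the LV that did not pass. Col11a1 was at 1.61 ± 0.53 (SE, adjusted p = 0.082) with ranges of 24.3 to 99.0 and 44.2 to 324, and Col12a1 at 1.27 ± 0.41 (SE, adjusted p = 0.0768) with ranges of 71.1 to 156 and 108 to 497. Col8a1 was at 0.90 ± 0.32 (SE, adjusted p = 0.109) with ranges of 174 to 310.4 and 183 to 798. In LV nPAB 10 and 11 Col12a1 stood at 128 and 108, inside the sham range, and the other 4 lay above it. By edgeR on recovered reads the adjusted p values were 0.0152 for Col12a1, 0.0224 for Col11a1 and 0.0291 for Col8a1, against 0.00925 to 0.190, 0.0116 to 0.224 and 0.00361 to 0.252 over their alternatives. Without LV nPAB 5 Col8a1 passed, at 0.00361; without LV nPAB 10 Col11a1 and Col12a1 passed, and without LV nPAB 11 Col12a1 and Col27a1 did. Col3a1, Col1a1 and Col1a2 were at -0.15 (adjusted p = 0.394), 0.05 (adjusted p = 0.832) and 0.07 (adjusted p = 0.765), with 95% intervals of -0.35 to 0.06, -0.19 to 0.30 and -0.18 to 0.33. Col18a1 was at 0.24 (adjusted p = 0.363) and Col4a5 at 0.25 (adjusted p = 0.0898).

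Whether the response differed between ventricles was tested on log2 RV minus log2 LV within each labelled mouse. Of 28 genes 0 rose and 2 fell, against a background of 1.11% of 13364 genes called (0.584% rose and 0.524% fell). For Col3a1 the within-mouse values of the 5 Sham mice were 0.50, 0.46, 0.50, 0.36 and 0.46, and those of nPAB mice 5, 6, 7, 8, 10 and 11 were 0.12, 0.03, 0.34, -0.02, -0.22 and -0.04. Each labelled banded mouse, 6 and 7 included, lay below every Sham mouse, and the difference was -0.42 ± 0.07 (SE, adjusted p = 0.00217). For Col5a1 the Sham values were 0.35, 0.26, 0.45, 0.44 and 0.24 and the nPAB values 0.01, 0.00, 0.13, -0.04, -0.13 and 0.06, again without overlap, with a difference of -0.34 ± 0.08 (SE, adjusted p = 0.0215). Without nPAB mice 6 and 7 both passed, at adjusted p values of 4.31e-06 and 0.00592, as did Col6a6, at 0.0282; with all mice Col6a6 was at -0.91 (adjusted p = 0.266). With the LV libraries of mice 6 and 7 exchanged Col3a1 passed (0.00487) and Col5a1 did not (0.0562). Over all their alternatives the adjusted p values ran from 4.31e-06 to 0.544 for Col3a1, from 0.00141 to 0.570 for Col5a1 and from 0.00945 to 0.675 for Col6a6. Without the mouse as block Col3a1 (0.544) and Col5a1 (0.570) did not pass, nor did they with no trend or robust option (0.206 and 0.211). The Col5a1 call was also lost without Sham mouse 9, 11 or 12, and Col6a6 passed without nPAB mouse 7.

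Col8a1 had the largest difference between ventricles, 1.70 ± 0.45 (SE, adjusted p = 0.151), and did not pass. Without nPAB mice 6 and 7 its adjusted p was 0.134. Its Sham values were -0.32, -0.68, 0.66, -2.03 and -1.39 and its nPAB values 0.79, 0.67, 0.49, 0.86, 1.12 and 1.78, with Sham mouse 11 inside the nPAB range. It passed with edgeR (0.00868) and DESeq2 (0.0122) with the mouse as block, and with limma without Sham mouse 11 (0.0186), against adjusted p values up to 0.570 over its alternatives. Col4a1 and Col4a2 were at 0.21 (adjusted p = 0.186) and 0.11 (adjusted p = 0.646), with 95% intervals of 0.06 to 0.35 and -0.05 to 0.26. Without nPAB mice 6 and 7 their adjusted p values were 0.145 and 0.556, within ranges of 0.0908 to 0.712 and 0.354 to 0.913 over their alternatives. Col11a1, Col12a1 and Col18a1 were at 0.35 (adjusted p = 0.898), 0.68 (adjusted p = 0.642) and 0.51 (adjusted p = 0.401), and did not pass. For Col11a1, Col12a1 and Col18a1 without nPAB mice 6 and 7 the adjusted p values were 0.764, 0.499 and 0.107.

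**Figure D5:**
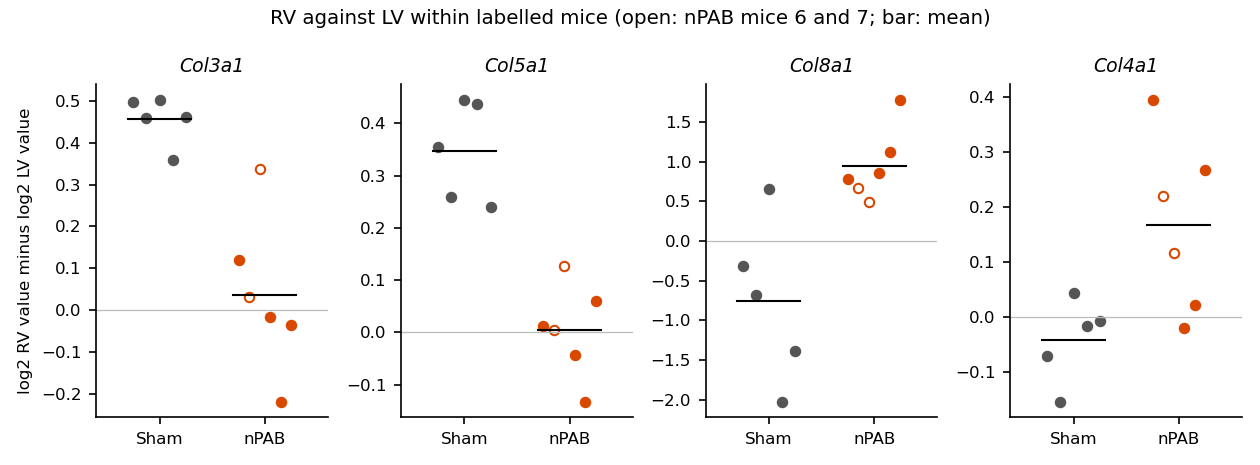
Log2 RV value minus log2 LV value in each labelled mouse for Col3a1, Col5a1, Col8a1 and Col4a1, on separate axes; open points are nPAB mice 6 and 7, whose libraries differ in sex, and bars are means. Col3a1 and Col5a1 lie above 0 in all Sham mice and lower in every labelled nPAB mouse, with nPAB mouse 7 at 0.34 for Col3a1, next to the lowest Sham mouse at 0.36.

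Genes that fold, cut and crosslink collagen chains were read from a list of 32 genes, 31 of them measured. In the RV 11 of 31 rose and 2 fell (11.1% and 10.8% of all genes), with a median log2 fold change of 0.24 against 5.16e-05 over all genes tested; in the LV 3 of 31 rose and 0 fell (4.76% and 4.55% of all genes). P3h2, a prolyl 3-hydroxylase that acts on type IV collagen, rose by 2.32 (adjusted p = 3.61e-06) in the RV and 1.34 (adjusted p = 0.0114) in the LV. P4hb, a subunit of the prolyl 4-hydroxylase, rose by 0.49 (adjusted p = 0.00231) and Plod2, a lysyl hydroxylase, by 0.72 (adjusted p = 0.00355) in the RV. Pcolce, which speeds removal of the C-propeptide, and the crosslinking enzyme Lox rose in both ventricles, by 0.54 (adjusted p = 0.00122) and 0.83 (adjusted p = 0.035) in the RV and 0.42 (adjusted p = 0.00494) and 0.50 (adjusted p = 0.0158) in the LV. Loxl2, a Lox relative, rose by 0.64 (adjusted p = 0.00471) in the RV. Mia2, of collagen export, and Adamts3, which removes the N-propeptide, fell in the RV, at -0.26 (adjusted p = 0.0484) and -0.82 (adjusted p = 0.0448). In RV minus LV with all mice 0 of 31 rose and 0 fell, against 0.584% and 0.524% of all genes.

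Among 9 measured collagen receptors 4 rose and 1 fell in the RV, against 11.1% and 10.8% of all genes, and 2 rose and 0 fell in the LV, against 4.76% and 4.55%. The integrin subunits Itga1 and Itgb1 rose by 0.50 (adjusted p = 0.00144) and 0.54 (adjusted p = 0.000257) in the RV, and Itgb1 by 0.31 (adjusted p = 0.00932) in the LV. Adgrg1, an adhesion receptor for type III collagen, rose by 1.07 (adjusted p = 0.000241) in the RV and 1.07 (adjusted p = 0.017) in the LV. Ddr2, the receptor kinase for fibrillar collagens, fell in the RV, at -0.56 (adjusted p = 0.00142). Cd44 rose by 0.57 (adjusted p = 0.0112) in the RV. With all mice 0 of the 9 receptors rose and 0 fell in RV minus LV, against 0.584% and 0.524% of all genes.

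Levels of some cell-type markers also differed between Sham and nPAB. The 8 fibroblast markers summed to 18836 to 25793 normalized counts in RV Sham and 10189 to 19796 in RV nPAB, against 16849 to 19672 and 14361 to 20847 in the LV. Pdgfra and Dpt fell in the RV, at -0.45 (adjusted p = 0.0343) and -0.74 (adjusted p = 0.000609), Pi16 rose by 0.97 (adjusted p = 0.00342), and 5 did not pass. Pdgfra and Dpt also fell in the RV minus LV comparison, at -0.58 (adjusted p = 0.0261) and -0.49 (adjusted p = 0.0059), and did so without nPAB mice 6 and 7 (adjusted p = 0.0017 and 0.000201). The 6 epicardial markers summed to 367 to 615 in RV nPAB against 187 to 363 in RV Sham, with 0 of 6 passing the test (lowest adjusted p = 0.0554, Msln), and 8 valve and cartilage-like markers to 360.5 to 928 against 262 to 386. Of the latter Scx and Cilp rose, by 1.72 (adjusted p = 7.08e-05) and 3.40 (adjusted p = 6.76e-05), and Matn4 and Chad were under a mean of 10 in both RV groups. The other 4 of 6 tested did not pass. Sox9 was at -0.007 (adjusted p = 0.98), Acan at -0.25 (adjusted p = 0.871) and Hapln1 at -0.72 (adjusted p = 0.291). Tnmd was at 3.04 (adjusted p = 0.0541). Atrial markers summed to 3159 to 16236 against 186 to 2538, with Nppa the 1 of 5 measured that rose. Endothelial sums overlapped, at 10955 to 12732 and 10349 to 12439.9, as did mural sums, at 24726 to 33775 and 23033 to 30056. Single markers moved in opposite directions. Of 8 endothelial markers in the RV Flt1 rose by 0.76 (adjusted p = 0.000375), Tek fell, at -0.68 (adjusted p = 0.0115), and 6 did not pass. Of 8 mural markers Cspg4 rose by 0.74 (adjusted p = 0.000515), Abcc9 fell, at -0.84 (adjusted p = 2.70e-05), and 6 did not pass. In the LV Flt1 and Notch3 rose, and Tek and Abcc9 fell. Of 7 myofibroblast markers Fn1 and Meox1 rose in the RV, by 0.31 (adjusted p = 0.0226) and 1.04 (adjusted p = 0.000549), and 5 did not pass. Both also rose in the LV, by 0.35 (adjusted p = 0.0476) and 0.58 (adjusted p = 0.0445). Of 6 macrophage markers 0 passed. The shares beside these marker counts were 11.1% of all genes rising and 10.8% falling in the RV. They were 4.76% and 4.55% in the LV, and 0.584% and 0.524% in RV minus LV. No marker on these lists was at 0 in every library of a group. The part of these cell types in the collagen results was not tested.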

How the data were processed

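Bulk RNA-seq was measured in the RV and LV of 6 nPAB and 5 Sham mice. The deposited values are a signal per gene and library: the authors divided gene counts by size factors, separately for each ventricle. Per the submitters' processing notes, cutadapt, featureCounts and DESeq2 were used on mm10; the aligner is not given in the sources used here, nor are versions or strand. All values came out as whole multiples of 1 read (tolerance 0.001), so reads were recovered, 7.11 to 11.3 M per library.

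Genes with a mean of at least 10 were tested on log2(value + 1) with limma 3.58.1 (R 4.3.3; trend and robust options), two-sided, with Benjamini-Hochberg adjustment over all tested genes and a threshold of 0.05. Fold changes on this scale understate those of low genes. Errors beside means are SD and beside log2 fold changes SE. The RV and LV were tested within their own tables, and the response was compared between them on RV minus LV within a mouse, as the labels give the same treatment and number to 1 mouse. Deviations of the ventricles of a mouse correlated at 0.133 to 0.384 across genes in all mice but nPAB 7, at 0.0559. That range holds nPAB 6, at 0.171, although its libraries differ in sex. Exchanged, RV 6 with LV 7 gave 0.180 and RV 7 with LV 6 gave -0.0444. This correlation therefore cannot show which libraries pair. The numbers 10 and 11 name different mice in nPAB and in Sham. Levels per kb use the length of the transcript with the longest coding sequence.

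Alternatives were pseudocounts of 0.5 and 5, no filter, a mean of at least 50, TMM factors, no trend or robust option, array weights, edgeR 4.0.16 and DESeq2 1.42.0 on recovered reads, no replicate block, and leaving out each library or mouse or nPAB mice 6 and 7. A sex term and exchanged LV libraries of mice 6 and 7 were added after seeing the data. Members, classes and lists were chosen with earlier results of these data known. Named with RV levels are Col1a1, Col1a2, Col3a1, Col4a1, Col4a2, the genes called and the largest change of each class; the 5 Sham values are printed, and the lowest, median and highest of the 6 nPAB values. Figures were drawn with matplotlib 3.10.9.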

Additional observations from a re-analysis of the deposited data

Results flagged for a closer look

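In 8 of 116 groups of collagen values, 1 library stood farther from the rest than Dixon's limit at the 95% level allows; chance flags about 1 in 20 groups. RV Sham 11 was the highest sham library for Col12a1, at 269.9 normalized counts against 126 for the next, and for Col11a1, at 157 against 87.1. RV nPAB 6 was highest for Col5a2, at 2229.7 against 1843. RV nPAB 7 was lowest for Col4a5, at 1009 against 1208, and RV nPAB 5 lowest for Col15a1, at 916 against 1601. In the LV, Sham 13 was highest for Col8a2, at 25.8 against 11.8, Sham 12 for Col9a2, at 7.53 against 1.21, and nPAB 6 for Col24a1, at 84.7 against 25.4.

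A pair of genes responded differently in the ventricles by the test of the difference itself (limma on RV minus LV within a mouse): Col3a1, at -0.42 on the log2 scale (adjusted p = 0.00217), and Col5a1, at -0.34 (adjusted p = 0.0215). Each was lower in every labelled nPAB mouse than in any Sham mouse, but the libraries of nPAB mice 6 and 7 differ in sex. That leaves 4 nPAB mice whose RV and LV libraries gave the same sex. For these too, the pairing itself rests on the labels. Without mice 6 and 7 the adjusted p values were 4.31e-06 and 0.00592. With their LV libraries exchanged they were 0.00487 and 0.0562, without the mouse as block 0.544 and 0.570, and with no trend or robust option 0.206 and 0.211.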

How the results depend on the processing

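The counts of collagens called (15) and of all genes called (2999) in the RV stayed within 1.5 times under every alternative run, and no collagen called changed direction in any comparison. In the LV the 3 collagens called became 5 with array weights or edgeR and 6 with DESeq2, and 2 to 5 without 1 library (5 without LV nPAB 5, 10 or 11). The 1260 genes called in the LV became 739 with no trend or robust option, 668 without nPAB mice 6 and 7, and 841 to 1290.0 without 1 library. For RV minus LV the 2 collagens called became 0 with no trend or robust option, 0 with no replicate block, 1 with the LV libraries of mice 6 and 7 exchanged, and 1 to 3 without 1 mouse (1 without Sham 9 or 12). The 148 genes called there became 1 with no trend or robust option, 5 with no replicate block, 63 with that exchange, 261 with array weights, 249 with DESeq2 and the replicate block, and 501 without nPAB mice 6 and 7. Without 1 mouse they numbered 80 to 393, more than 1.5 times away from 148 without nPAB 5 (84), nPAB 7 (393), Sham 9 (87), Sham 10 (93), Sham 12 (93) or Sham 13 (80). The cause of these changes was not tested. Class sums and chain ratios moved by less than 1 SD under every alternative run. No paired analysis was possible between nPAB and Sham because they are different mice. Low counts limit Col9a2, with 0 to 4 reads in RV Sham, which fell under the minimum mean without RV nPAB 6, 10 or 11.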
